A study of Mus musculus with 6 samples.

Results

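The genes of the colony-stimulating factor receptors and of their ligands were followed across macrophages sorted from mouse skin by their level of CX3CR1, the fractalkine receptor. The 7 genes were Csf1r, Csf1, Il34, Csf2ra, Csf2rb, Csf2rb2 and Csf3r, taken from a list of names and matched to the array through probe sets that carry exactly 1 gene symbol. All 7 were found, each on 1 such probe set, among 22180 genes so matched, and all 7 passed the filter on dim genes. Gene expression was measured on Affymetrix arrays in dermal macrophages from the digested ear skin of C57Bl/6 mice aged 2 weeks. All mice carried the genotype Cx3cr1+/gfp, in which green fluorescent protein replaces one copy of Cx3cr1, so that every subset, including CX3CR1low cells, had a single intact copy of that gene. The 3 subsets, CX3CR1low, CX3CR1int (intermediate) and CX3CR1high, had 2 samples each, every sample a pool of 4 mice, and came from 2 independent litters. The labels name no treatment.

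Colony-stimulating factors are secreted proteins that keep myeloid cells alive and direct their growth and differentiation. CSF1 (M-CSF) and interleukin-34 bind the same receptor, the tyrosine kinase encoded by Csf1r, on which most tissue macrophages depend. In skin, interleukin-34 is made mainly by keratinocytes and is known for sustaining Langerhans cells. GM-CSF binds a specific alpha chain (Csf2ra) that signals with a shared beta chain (Csf2rb), while the mouse has a further, closely related beta chain (Csf2rb2) that serves interleukin-3. G-CSF acts through the homodimeric receptor encoded by Csf3r, best known from neutrophils.

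The values were log2 signals normalised with RMA. Array medians lay between 4.84 and 4.94, and correlations across genes were 0.974 to 0.977 within subsets and 0.960 to 0.978 between them. Cx3cr1 itself was at 5.87 and 7.01 in CX3CR1low cells, 7.05 and 6.84 in CX3CR1int cells and 10.55 and 9.51 in CX3CR1high samples, so that its probe set separated only CX3CR1high from the rest. All 10 markers of macrophage identity looked for, among them Adgre1, Mertk and Fcgr1, lay above the dim level of 4.335, the 30th percentile of mean signal. Their summed signal on the linear scale was 20497 to 22311 in CX3CR1low cells, 21917 to 22194 in CX3CR1int cells and 20621 to 21457 in CX3CR1high samples. Single markers within this sum moved in both directions. Between CX3CR1high and CX3CR1low 3 were higher and 7 lower, and none was called. Cd163 differed by -0.905 (limma adjusted p = 0.0829) and Cd14 by 0.45 (0.292). Replicates 2 differed from replicates 1 in genes of the sex chromosomes. Xist, expressed from the inactive X chromosome of females, was at 10.99 to 11.39 against 7.39 to 7.97, and the Y-linked Eif2s3y at 2.99 to 3.72 against 7.76 to 8.27. With only 2 arrays per subset, the number of arrays limits the precision.

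Csf1r, the receptor on which the survival of macrophages depends, had a bright signal in every sample and a nearly flat profile. It was at 11.58 and 11.15 in CX3CR1low cells, 11.42 and 11.28 in CX3CR1int cells, and 11.29 and 11.16 in CX3CR1high samples. The ranges of the 3 subsets overlapped, and all 6 values lay within 0.43 log2 units. The CX3CR1high mean, 11.23 ± 0.09 (SD, n = 2), was below the CX3CR1low mean, 11.37 ± 0.30 (SD, n = 2), by less than the spread of the CX3CR1low samples. The log2 difference was -0.14 ± 0.16 (SE, limma adjusted p = 0.848), with a 95% interval of -0.49 to 0.21, a ratio of 0.710 to 1.16. Against CX3CR1int the CX3CR1high samples differed by -0.125 (adjusted p = 0.900), and CX3CR1int differed from CX3CR1low by -0.015 (adjusted p = 0.996). A transcript level in sorted bulk cells does not tell fewer expressing cells from less RNA per cell.

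Csf1, which encodes the main growth factor of macrophages, was highest in both CX3CR1high samples. Its log2 signal was 5.95 and 5.83 in CX3CR1low cells, 5.94 and 5.93 in CX3CR1int cells, and 6.48 and 6.18 in CX3CR1high samples. The CX3CR1high samples lay above the other 4, which themselves spanned only 5.83 to 5.95. The difference between CX3CR1high and CX3CR1low was 0.44 ± 0.18 (SE), a ratio of 1.36 with a 95% interval of 1.02 to 1.80. It did not pass the test over all genes (limma adjusted p = 0.488). Between CX3CR1high and CX3CR1int it was 0.395 ± 0.18 (SE, adjusted p = 0.636), and between CX3CR1int and CX3CR1low 0.05 (adjusted p = 0.996). The size of the difference depended on the CX3CR1high sample 1: without it Csf1 was 0.29 higher than in CX3CR1low cells, and without the CX3CR1high sample 2 it was 0.59 higher.

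Il34, the other ligand of the same receptor, had a signal close to the dim level in every subset. It was at 4.68 and 4.73 in CX3CR1low cells, 4.73 and 4.37 in CX3CR1int cells, and 4.78 and 4.50 in CX3CR1high samples. The subsets overlapped, and the CX3CR1int sample 2 was only just above 4.335. CX3CR1high and CX3CR1low differed by -0.07 (95% interval -0.50 to 0.37, limma adjusted p = 0.952). Keratinocyte genes, which mark the main known source of interleukin-34 in skin, were at a summed signal of 1824 and 2531 in CX3CR1low cells, 1377 and 1390 in CX3CR1int cells, and 1211 and 1196 in CX3CR1high samples. All 11 keratinocyte markers on the array lay above the dim level. One of them, the keratin gene Krt10, was named after its values were seen. It was called lower in CX3CR1high than in CX3CR1low cells (-1.46 ± 0.23, SE, limma adjusted p = 0.0439). The call ended on leaving out any sample other than the CX3CR1low sample 1, while the difference stayed between -1.825 and -1.095. The part of keratinocyte RNA in the Il34 values was not tested.

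**Figure D1:**
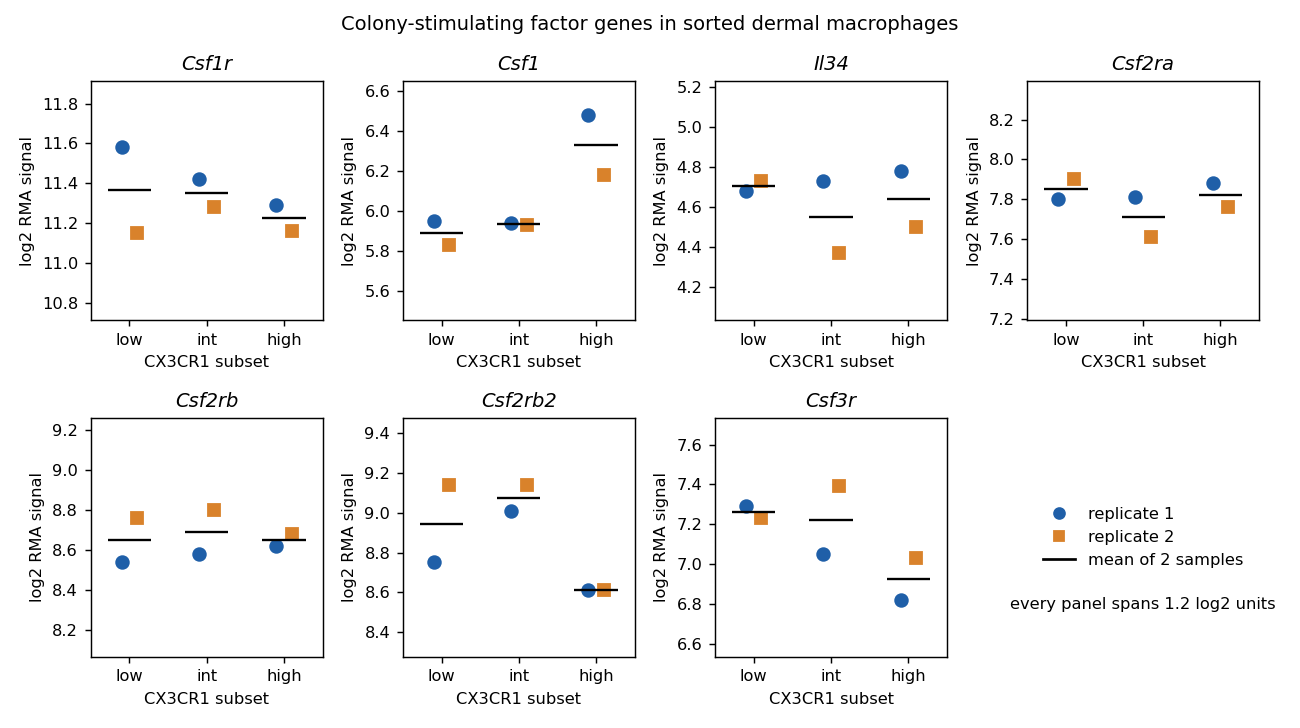
Log2 RMA signal (vertical axis, 1.2 log2 units in every panel) of the 7 genes in the CX3CR1low, CX3CR1int and CX3CR1high subsets; circles are replicates 1, squares replicates 2, and lines the mean of 2 samples. Both CX3CR1high samples are apart from the other 4 for Csf1 (6.48 and 6.18), Csf2rb2 (both 8.61) and Csf3r (6.82 and 7.03), while the subsets overlap for the other 4 genes. Of all genes 38.3% do not overlap between CX3CR1high and CX3CR1low, and 36.8% between CX3CR1high and CX3CR1int. The share apart from both was not counted.

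Csf2ra, the chain that gives the GM-CSF receptor its specificity, varied little. Its log2 signal was 7.80 and 7.90 in CX3CR1low cells, 7.81 and 7.61 in CX3CR1int cells, and 7.88 and 7.76 in CX3CR1high samples. The subset ranges overlapped within 0.29 log2 units. CX3CR1high differed from CX3CR1low by -0.03 ± 0.17 (SE, 95% interval -0.42 to 0.36, limma adjusted p = 0.976). Against CX3CR1int the difference was 0.11 (adjusted p = 0.923).

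Csf2rb, the beta chain shared by the receptors of GM-CSF, interleukin-3 and interleukin-5, had equal means in CX3CR1low and CX3CR1high cells. It was at 8.54 and 8.76 in CX3CR1low cells, 8.58 and 8.80 in CX3CR1int cells, and 8.62 and 8.68 in CX3CR1high samples. The values of CX3CR1high lay inside those of both other subsets. The difference between CX3CR1high and CX3CR1low was 0 ± 0.17 (SE, 95% interval -0.39 to 0.39, limma adjusted p = 1), and that between CX3CR1int and CX3CR1low 0.04 (adjusted p = 0.996). The 6 values spanned 0.26 log2 units, the narrowest range among the 7 genes.

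Csf2rb2, its close relative for interleukin-3, did not share that profile. The log2 signal was 8.75 and 9.14 in CX3CR1low cells, 9.01 and 9.14 in CX3CR1int cells, and 8.61 in both CX3CR1high samples. The CX3CR1high samples thus lay below the other 4, while CX3CR1low and CX3CR1int overlapped. Against CX3CR1int the difference was -0.465 ± 0.18 (SE), a ratio with a 95% interval of 0.547 to 0.960, and it did not pass over all genes (limma adjusted p = 0.547). Against CX3CR1low it was -0.335 ± 0.18 (SE, adjusted p = 0.618), and it shrank to -0.14 without the CX3CR1low sample 2. Csf2rb2 and Csf2rb are neighbouring genes of near-identical sequence, so that probes may detect both transcripts. How far the 2 probe sets tell them apart was not tested. Mast cells are a known site of interleukin-3 receptors, and their markers were lowest in the same CX3CR1high samples. Their summed signal was 776 and 575 in CX3CR1low cells, 455 and 417 in CX3CR1int cells, and 221 and 208 in CX3CR1high samples. This sum was highest in CX3CR1low cells, whereas Csf2rb2 had its highest mean in CX3CR1int cells. Within CX3CR1low, sample 1 had the higher sum and the lower Csf2rb2 value. Of 9 mast cell markers on the array 7 were tested, and Fcer1a and Ms4a2 lay below the dim level. Cpa3 was at 3.82 and 4.32 in the CX3CR1high samples, both below the dim level. The mast cell protease genes Cpa3 (-3.37, limma adjusted p = 0.00512), Mcpt4 (-2.255, 0.0168) and Cma1 (-1.865, 0.0130) were called lower in CX3CR1high than in CX3CR1low cells. None of these 3 calls held without the CX3CR1high sample 1. Those of Mcpt4 and Cma1 also ended without the CX3CR1high sample 2 or the CX3CR1low sample 1. Each such fit leaves 1 sample in a subset. The differences kept their direction on leaving out samples, at -3.73 to -3.01 for Cpa3, -2.525 to -1.985 for Mcpt4 and -2.08 to -1.65 for Cma1. Cpa3 was called lower against CX3CR1int as well (-2.39, limma adjusted p = 0.0405). That call ended without any sample of either subset, while the difference stayed between -2.64 and -2.14. Monocyte markers were at 287 and 599, 504 and 768, and 428 and 365 in the same order, highest on average in CX3CR1int, where Csf2rb2 also had its highest mean. Their lowest sum was in the CX3CR1low sample 1, not in CX3CR1high, where Csf2rb2 was lowest. Of 7 monocyte markers on the array 6 lay above the dim level and Chil3 below it. Ly6c2, the surface antigen by which classical monocytes are recognised, was at 6.48 and 7.11 in CX3CR1low cells, 7.35 and 7.90 in CX3CR1int cells, and 3.36 and 4.92 in CX3CR1high samples, the first of which lay below the dim level. It was called lower in CX3CR1high than in CX3CR1int cells (-3.485 ± 0.45, SE, limma adjusted p = 0.0421). That call ended on leaving out any sample other than the CX3CR1high sample 2, while the difference stayed between -4.265 and -2.705. Against CX3CR1low the difference was -2.655 (adjusted p = 0.0586, and 0.00484 with the replicate block). Ccr2, the chemokine receptor of the same monocytes, was 0.57 higher in CX3CR1high than in CX3CR1int cells and was not called (adjusted p = 0.824). These marker genes were named after their values were seen. The part of mast cell or monocyte RNA in the Csf2rb2 values was not tested.

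Csf3r, the G-CSF receptor, was lowest in the CX3CR1high samples. It was at 7.29 and 7.23 in CX3CR1low cells, 7.05 and 7.39 in CX3CR1int cells, and 6.82 and 7.03 in CX3CR1high samples. The CX3CR1high samples lay below the other 4, though the gap to the CX3CR1int sample 1 was small. The difference from CX3CR1low was -0.335 ± 0.19 (SE, 95% interval -0.77 to 0.10, limma adjusted p = 0.648), and that from CX3CR1int was -0.295 (adjusted p = 0.770). Without the CX3CR1int sample 2 the latter was -0.125. Neutrophil markers, 6 of 10 above the dim level, summed to 225 and 280 in CX3CR1low cells, 224 and 280 in CX3CR1int cells, and 232 and 240 in CX3CR1high samples. The neutrophil genes Ly6g, Ngp, Camp and Retnlg were below the dim level. The part of neutrophil RNA in the Csf3r values was not tested.

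The promoters of the 3 genes whose CX3CR1high samples lay apart from the rest are shown, from RefSeq in the GRCm38.p6 build, as 250 bases before and 50 after the start of the gene. Capitals mark the purine-rich core GAGGAA, or its reverse complement TTCCTC, which is a preferred sequence of the macrophage factor PU.1 (Spi1). The promoters of 4 of the 7 genes were in the table. Csf1 is on the minus strand at chr3:107760420-107760719, Csf2rb2 on the minus strand at chr15:78305672-78305971 and Csf3r on the plus strand at chr4:126024409-126024708.
Csf1: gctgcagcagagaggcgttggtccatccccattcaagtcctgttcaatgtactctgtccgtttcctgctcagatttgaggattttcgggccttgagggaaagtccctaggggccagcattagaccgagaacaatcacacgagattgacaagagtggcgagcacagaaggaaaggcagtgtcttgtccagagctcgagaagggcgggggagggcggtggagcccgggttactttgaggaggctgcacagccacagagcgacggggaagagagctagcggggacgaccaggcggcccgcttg
Csf2rb2: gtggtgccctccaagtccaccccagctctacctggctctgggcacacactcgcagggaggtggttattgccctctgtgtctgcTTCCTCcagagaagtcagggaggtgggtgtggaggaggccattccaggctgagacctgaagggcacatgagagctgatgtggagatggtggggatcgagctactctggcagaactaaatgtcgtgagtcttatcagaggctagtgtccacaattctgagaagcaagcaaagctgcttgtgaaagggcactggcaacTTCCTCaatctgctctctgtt
Csf3r: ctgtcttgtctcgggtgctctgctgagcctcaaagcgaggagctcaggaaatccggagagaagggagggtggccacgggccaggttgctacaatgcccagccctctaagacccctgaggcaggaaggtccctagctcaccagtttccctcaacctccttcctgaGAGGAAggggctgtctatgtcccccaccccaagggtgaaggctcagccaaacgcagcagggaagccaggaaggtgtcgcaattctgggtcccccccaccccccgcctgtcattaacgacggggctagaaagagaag
The letters GAGGAA on either strand occurred 0 times in the Csf1 window, 2 times in that of Csf2rb2 and 1 time in that of Csf3r. They also occurred 2 times in the window of Csf2ra, whose subsets overlapped. Of all 32851 promoter windows of this length 28.3% hold them. The C/EBP-type motif TTGCNNAA, on either strand, was in none of the 4 windows and in 10.8% of all. Spi1 itself was at 9.18 and 8.98 in CX3CR1low cells, 9.02 and 9.08 in CX3CR1int cells, and 9.41 and 9.21 in CX3CR1high samples, a difference between the ends of 0.23 (limma adjusted p = 0.720).

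No member of the family was called in any comparison of subsets. Between CX3CR1high and CX3CR1low cells 0 of 7 were called in limma, beside 62 of 15529 genes (0.399%), and 1 of 7, Csf1, had an unadjusted p below 0.05, beside 9.65% of all genes. Between CX3CR1high and CX3CR1int 0 of 7 were called, beside 0.142% of all genes, and 1, Csf2rb2, had an unadjusted p below 0.05, beside 7.89%. Between CX3CR1int and CX3CR1low 0 of 7 were called, beside 0.00644% of all genes, and none had an unadjusted p below 0.05, beside 4.89%. A test for any difference among the 3 subsets also called 0 of 7, beside 0.187% of all genes, with the lowest adjusted p at 0.649 for Csf2rb2 and 0.652 for Csf1. With the replicate block, which adds the replicate number to the model, 0.992%, 0.303% and 0% of all genes were called in the 3 comparisons, and again no member.

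The groups of 2 samples did not overlap for 3 of 7 genes between CX3CR1high and CX3CR1low, Csf1 higher and Csf2rb2 and Csf3r lower, beside 38.3% of all genes (19.8% higher and 18.4% lower). The same 3 genes did not overlap between CX3CR1high and CX3CR1int, beside 36.8% of all genes (18.3% higher and 18.5% lower). These comparisons share the CX3CR1high samples, and the share of all genes apart from both other subsets was not counted. Between CX3CR1int and CX3CR1low all 7 overlapped, whereas 31.4% of all genes did not (16.6% higher and 14.8% lower). The median difference of the 7 genes was -0.07, -0.04 and -0.02 for CX3CR1high against CX3CR1low, CX3CR1high against CX3CR1int and CX3CR1int against CX3CR1low, beside 0.01, 0 and 0.01 over all genes. Over the 21 differences the 95% intervals, which are not adjusted for their number, reached from -0.87 to 0.85 log2 units. Each therefore stayed within a 2-fold difference in either direction.

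**Figure D2:**
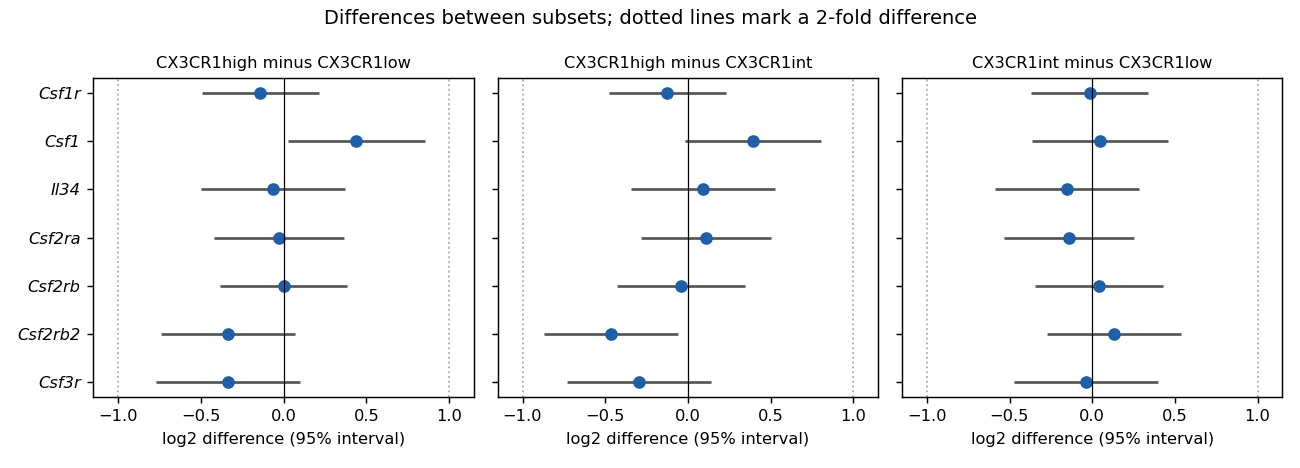
Log2 difference of each gene (points) with its 95% interval from limma (lines) in the 3 comparisons of subsets; the dotted lines mark a 2-fold difference. The largest differences are Csf2rb2 at -0.465 between CX3CR1high and CX3CR1int and Csf1 at 0.44 between CX3CR1high and CX3CR1low, and no interval reaches a dotted line.

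The 2 samples of a subset also differed, for 3 of the 7 genes in the same direction in every subset. Csf1r and Csf1 were lower in replicate 2 in all 3 subsets, as were 16.5% of all genes, and Csf2rb was higher in replicate 2 in all 3, as were 12% of all genes. The mean difference of replicate 2 from replicate 1 was -0.23 ± 0.10 (SE) for Csf1r, -0.14 ± 0.15 (SE) for Csf1 and 0.17 ± 0.13 (SE) for Csf2rb. Limma gave adjusted p = 0.631, 0.849 and 0.793 for them, so that none was called, beside 0.0837% of all genes. For Csf1r this difference was larger than any of its differences between subsets. The replicates also differed in Xist and Eif2s3y, and the part of sex composition in these values was not tested.

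**Figure D3:**
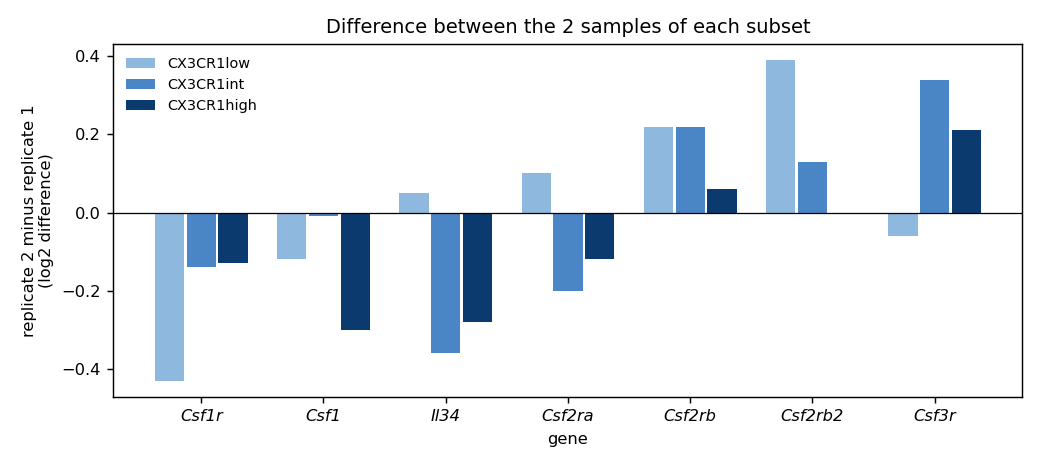
Replicate 2 minus replicate 1 (vertical axis, log2 difference) for each of the 7 genes, with a bar for each subset. Csf1r and Csf1 are below 0 and Csf2rb above 0 in all 3 subsets, and the bar of Csf2rb2 in CX3CR1high cells has no height because both samples were at 8.61.

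The signalling partners of these receptors were examined through 6 gene lists holding 81 different genes, of which 71 were tested. Of these 1 was called between CX3CR1high and CX3CR1low cells, beside 0.399% of all genes, and 0 in either other comparison. An unadjusted p below 0.05 was found for 15, 6 and 7 of the 71 genes in these comparisons, taken in the same order as above. These are 21.1%, 8.45% and 9.86% of the tested genes of the lists, which were chosen with earlier results of these data known. The corresponding background shares were 9.65%, 7.89% and 4.89% of all genes.

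Among proteins that bind the activated CSF1 receptor or pass on its signal, 24 of 28 genes were tested and none was called in any comparison. Between CX3CR1high and CX3CR1low 11 were higher and 13 lower, with a median of -0.01 beside 0.01 over all genes. The Src family kinase gene Fyn, at 6.50 and 6.86 in CX3CR1low cells, 7.01 and 6.75 in CX3CR1int cells and 7.23 and 7.17 in CX3CR1high samples, had the largest difference of this list (0.52 ± 0.20, SE, limma adjusted p = 0.433, and 0.34 without the CX3CR1low sample 1). Ptpn6, which encodes the inhibitory phosphatase SHP-1, differed by 0.465 (adjusted p = 0.504), and by 0.265 without the CX3CR1low sample 2.

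Of the kinases, STAT factors and feedback inhibitors that act below the GM-CSF and G-CSF receptors, 16 of 18 were tested, 8 were higher and 8 lower, and none was called. Its 2 largest differences ran in opposite directions. Jak2, the kinase bound to the shared beta chain, was at 8.28 and 8.65 in CX3CR1low cells, 8.67 and 8.60 in CX3CR1int cells and 9.28 and 9.21 in CX3CR1high samples. Both CX3CR1high samples were the highest, by a difference of 0.78 ± 0.18 (SE) from CX3CR1low (limma adjusted p = 0.158). Stat5b, a transcription factor that these receptors activate, was at 7.20 and 7.24 in CX3CR1low cells, 6.51 and 6.82 in CX3CR1int cells and 6.37 and 6.26 in CX3CR1high samples. None of its subsets overlapped, and CX3CR1high differed from CX3CR1low by -0.905 ± 0.18 (SE, limma adjusted p = 0.105). Of all genes 31.4% to 38.3% did not overlap in a given pair of subsets.

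Of 6 further ligands and receptor chains of the family, Il3 and Il5ra lay below the dim level and 4 were tested, 1 higher and 3 lower in CX3CR1high than in CX3CR1low cells, none called. Csf3, the gene of G-CSF, was at 7.94 and 7.56 in CX3CR1low cells, 7.0 and 8.06 in CX3CR1int cells and 6.98 and 7.12 in CX3CR1high samples. The 2 CX3CR1int samples spanned nearly the whole range, and CX3CR1high differed from CX3CR1low by -0.70 ± 0.32 (SE, limma adjusted p = 0.531). Il3ra, the alpha chain of the interleukin-3 receptor, was at 7.55 and 7.58 in CX3CR1low, 7.32 and 7.36 in CX3CR1int cells and 7.12 and 7.04 in CX3CR1high cells, with a difference of -0.485 ± 0.17 (SE, adjusted p = 0.372) between the ends. The samples of Il3ra did not overlap between any subsets. Of all genes 31.4% to 38.3% did not overlap in a given pair of subsets, and the share apart in every pair was not counted. Csf2, the gene of GM-CSF, which was named after its values were seen, was between 4.31 and 5.15 in all samples and differed by 0.33 (adjusted p = 0.764).

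Receptor tyrosine kinases of the same class as the CSF1 receptor and their ligands were tested for 7 of 8 genes, and none was called. Pdgfb, a ligand of the platelet-derived growth factor receptors, was at 6.26 and 5.47 in CX3CR1low cells, 6.20 and 5.95 in CX3CR1int cells and 7.24 and 6.48 in CX3CR1high samples. It was 0.995 ± 0.32 (SE) higher in CX3CR1high than in CX3CR1low cells (limma adjusted p = 0.325, and 0.0726 with the replicate block). Leaving out the CX3CR1low sample 2 gave a difference of 0.60, and leaving out the CX3CR1high sample 1 gave 0.615. Flt3, the receptor that dendritic cell precursors depend on, was highest in the CX3CR1int samples (5.63 and 4.97), against 4.57 and 4.32 in CX3CR1low and 5.07 and 4.67 in CX3CR1high, and overlapped with CX3CR1high.

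Of 12 transcription factors reported to act on Csf1r, 11 were tested, 4 higher and 7 lower in CX3CR1high than in CX3CR1low cells, and none was called. Klf4, a factor of monocyte differentiation, was at 10.29 and 10.11 in CX3CR1low cells, 9.60 and 9.75 in CX3CR1int cells and 9.57 and 9.29 in CX3CR1high samples. It was lowest in CX3CR1high, with a difference of -0.77 ± 0.16 (SE, limma adjusted p = 0.113) from CX3CR1low. The CX3CR1high samples did not overlap with the others, though the gap to CX3CR1int was small (9.57 against 9.60). Of all genes 38.3% did not overlap between CX3CR1high and CX3CR1low, and 36.8% between CX3CR1high and CX3CR1int. Egr1, an immediate early factor, differed by -0.645 (adjusted p = 0.363).

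Of 13 genes known to respond to GM-CSF in myeloid cells 12 were tested. Ccl22, a chemokine that draws T cells, was the single called gene of the 6 lists, from 5.94 and 6.90 in CX3CR1low cells through 6.90 and 6.93 in CX3CR1int to 8.57 and 8.12 in CX3CR1high samples. It rose by 1.93 ± 0.30 (SE, limma adjusted p = 0.0428) between the ends. The call ended without either CX3CR1high sample, without the CX3CR1low sample 1 and without either CX3CR1int sample. The difference itself stayed between 1.445 and 2.405 on leaving out samples, and was 1.925 without either CX3CR1int sample. The call also ended without the filter on dim genes (limma adjusted p = 0.0620) and with every probe set on its own (0.0916). With arrays centred on medians (0.0510) and with only the 4 samples compared (0.101) it was lost as well. The other 11 tested genes of this list were not called, 3 of them higher and 8 lower.

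**Figure D4:**
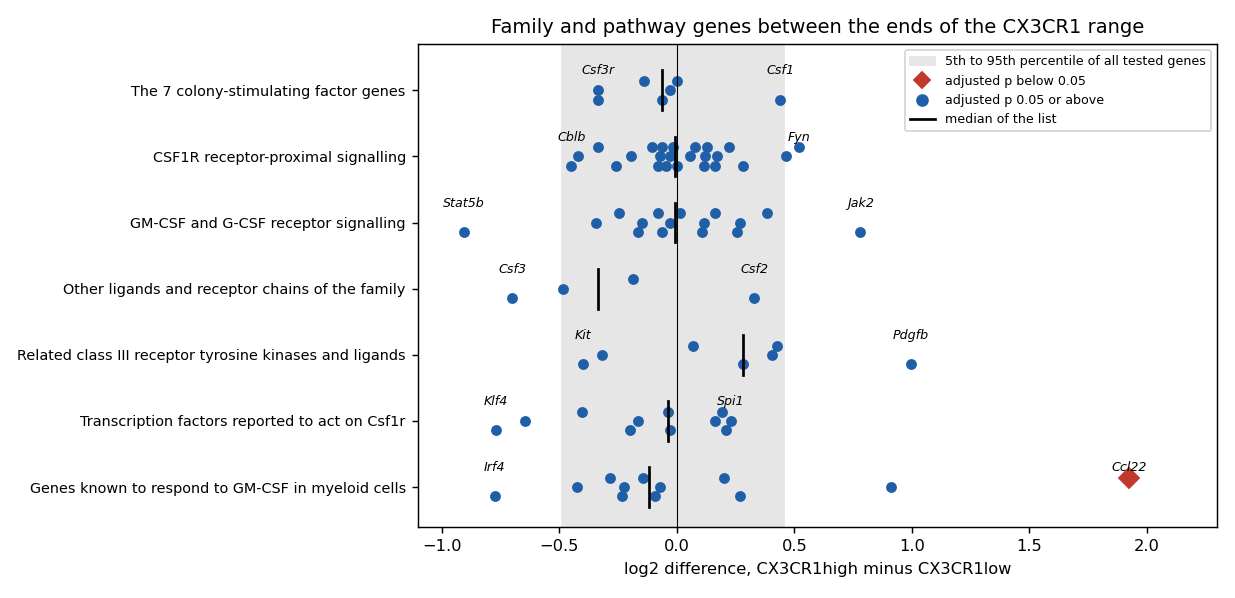
Log2 difference between CX3CR1high and CX3CR1low cells (horizontal axis) for the 7 genes and for the tested genes of 6 lists of related genes; bars mark list medians, labels the lowest and highest gene of a list, and the grey band the 5th to 95th percentile of all tested genes. Ccl22 (1.93) is the only called gene, and all 7 colony-stimulating factor genes lie inside the band.

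For each of the 7 genes the tested genes with the most similar profile were sought, by Pearson correlation over the 6 arrays among 2934 genes with an SD of at least 0.3. The best of so many genes over 6 arrays, which came from only 2 litters, is a description of the profile only. Csf1 was most like Ldhb (r = 0.991), Bcl2l11 (r = 0.985), which promotes apoptosis, and Grasp (r = 0.980). Bcl2l11 was at 8.39 and 8.22 in CX3CR1low cells, 8.42 and 8.28 in CX3CR1int cells, and 9.21 and 8.62 in CX3CR1high samples. Like Csf1, it was highest in CX3CR1high and higher in replicate 1 of each subset. Csf3r was most like Abca9 (r = 0.993), the lysosomal hydrolase gene Naglu (r = 0.990) and the cobalamin carrier gene Tcn2 (r = 0.989). Csf1r was most like Gas2l1 (r = 0.997), Zfp943 (r = 0.986) and the signalling adaptor gene Hcst (r = 0.983), all with their highest value in the CX3CR1low sample 1. Csf2rb2 was most like Atg10 (r = 0.955), Pgrmc2 (r = 0.952) and Gm13351 (r = 0.947).

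The profile of Csf2rb was most like those of Il4 (r = 0.992), S100a8 (r = 0.972) and Sgms2 (r = 0.970). Il4 was dim, between 4.25 and 5.07 in all samples, and its CX3CR1low replicate 1 lay below the dim level. S100a8, a calcium-binding protein abundant in neutrophils and monocytes, was at 3.85 and 6.01 in replicates 1 and 2 of CX3CR1low, 4.03 and 5.77 in those of CX3CR1int, and 4.43 and 4.80 in those of CX3CR1high cells. Its replicate 1 values in CX3CR1low and CX3CR1int cells lay below the dim level of 4.335. Over the 6 arrays Csf2rb had an SD of only 0.102, against 0.898 for S100a8. S100a8 is itself one of the neutrophil markers summed above. The part of neutrophil or monocyte RNA in the difference of Csf2rb between replicates was not tested. Csf2ra was most like Gm45351 (r = 0.982), Pan2 (r = 0.970) and the phosphodiesterase gene Pde1b (r = 0.969), and Il34 was most like Tmem178b (r = 0.959), Lypd2 (r = 0.947) and Gm2837 (r = 0.936). Csf2ra and Il34 both had their lowest value in the CX3CR1int sample 2.

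The remaining marker lists stand for cells that make or use these factors and could be present in a sort. Fibroblast markers, of which all 10 lay above the dim level, summed to 4016 and 6289 in CX3CR1low cells, 3319 and 3305 in CX3CR1int cells, and 2402 and 2392 in CX3CR1high samples. None was called in the main fit, and with the replicate block 5 of 10 were called lower in CX3CR1high than in CX3CR1low. Fibroblasts are a known source of CSF1, and the part of their RNA in the Csf1 values was not tested. Endothelial markers, 6 of 8 above the dim level with Kdr and Emcn below it, summed to 328 and 360, 250 and 303, and 278 and 230. Langerhans cell markers, all 4 on the array above the dim level, summed to 456 and 438, 320 and 419, and 466 and 548. Among them Cd207 was at 6.72 and 6.48, 6.00 and 6.85, and 7.57 and 8.07. It was 1.22 higher in CX3CR1high than in CX3CR1low (limma adjusted p = 0.181), while the other 3 were lower. Dendritic cell markers, 6 of 7 above the dim level, summed to 377 and 459, 435 and 444, and 505 and 417. Of the 6 tested, 4 were higher and 2 lower in CX3CR1high than in CX3CR1low, with Ccr7 1.315 higher (limma adjusted p = 0.0510). Markers of eosinophils and basophils, 3 of 6 above the dim level, summed to between 106 and 123 in all samples. Those of T, NK and innate lymphoid cells, 6 of 8 above it, summed to 591 and 940, 776 and 696, and 894 and 891.

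**Figure D5:**
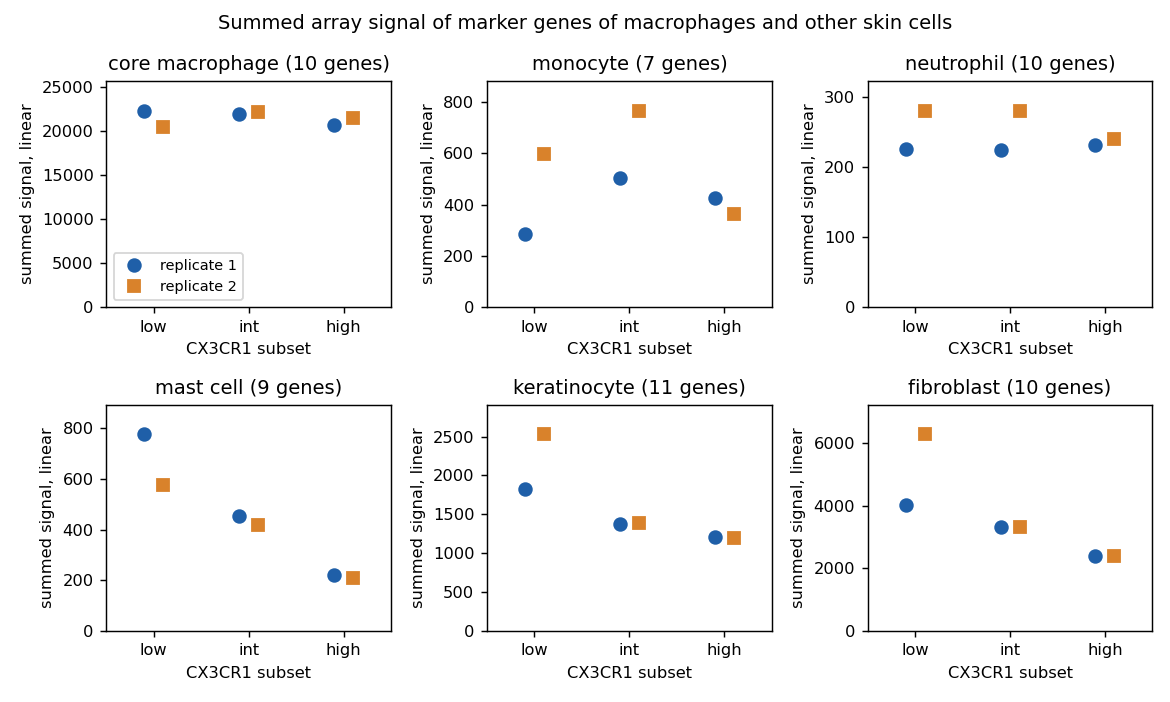
Summed linear signal (vertical axis, from 0) of marker genes of macrophages and of 5 other cell types in each sample, by subset; circles are replicates 1 and squares replicates 2. Mast cell and fibroblast sums are lowest in CX3CR1high samples, 221 and 208 for mast cells, while the macrophage sum stays between 20497 and 22311. Of its 10 genes 3 are higher and 7 lower in CX3CR1high than in CX3CR1low samples.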

How the data were processed

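RNA from 6 sorted samples was amplified by a whole-transcriptome kit, per the labels' protocols. The deposited values were log2 signals. The submitters' processing notes name RMA and Affymetrix Expression Console 1.4, and these values were not normalised again in the main fit. Of 34390 probe sets 23521 carried 1 symbol, 1814 several and 9055 none, and the brightest of those with 1 symbol stood for each gene. Genes whose mean signal fell below the 30th percentile (4.335) were dropped, leaving 15529 of 22180. R 4.3.3 with limma 3.58.1 fitted a mean per subset with an intensity trend, two-sided tests and Benjamini-Hochberg adjustment, called at 0.05, on 3 residual and 5.77 prior degrees of freedom. The fit was checked on simulated data.

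The labels do not say whether a replicate number marks a litter. Deviations of same-numbered samples correlated at 0.146, 0.136 and 0.178 for the 3 pairs of subsets. Xist and Eif2s3y also separated the samples by replicate number in every subset. The samples were therefore taken as paired, and a replicate block was run as well. The main fit leaves the replicate number out, and values given without mention of the block come from fits without it.

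The 7 genes and all lists were chosen with earlier results of these data known. Named from the 6 pathway lists were called genes, at most 4 per list, or else the 2 largest differences between CX3CR1high and CX3CR1low. The 3 most similar profiles per gene were named. Alternatives concerned the filter, the probe set per gene, the normalisation, the variance prior, the samples fitted, the replicate block and each left-out sample. Probe sequences were not used here.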

Additional observations from a re-analysis of the deposited data

How the results depend on the processing

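No member was called in any of the 333 values from 21 differences and 16 alternatives, and the lowest adjusted p was 0.401 (Csf1, CX3CR1high against CX3CR1low, replicate block). Differences near 0 changed sign, 16 values of 11 differences, all but 1 on leaving out a sample. The exception was Csf2ra between CX3CR1high and CX3CR1low (0.00792 after quantile normalisation again, and -0.09 to 0.03 on leaving out samples). Leaving out samples gave, for CX3CR1high against CX3CR1low, -0.355 to 0.075 for Csf1r and -0.205 to 0.075 for Il34. For CX3CR1high against CX3CR1int it gave -0.15 to 0.07 for Csf2rb and -0.09 to 0.27 for Il34. For CX3CR1int against CX3CR1low it gave -0.015 to 0.105 for Csf1, -0.23 to 0.20 for Csf1r, -0.07 to 0.15 for Csf2rb, -0.065 to 0.325 for Csf2rb2, -0.21 to 0.13 for Csf3r and -0.335 to 0.025 for Il34. Il34 could not be fitted with the stricter filter, which removed it.

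Counts of called genes over the whole array were less stable, and the cause was not tested. Between CX3CR1high and CX3CR1low the count of 62 became 26 without the filter, 18 with every probe set on its own, 40 with arrays centred on medians, 39 with only the 4 samples compared, 154 with the replicate block and 0 to 39 on leaving out samples, 0 of them without the CX3CR1high sample 1. Between CX3CR1high and CX3CR1int the count of 22 became 0 without the filter and with every probe set on its own, 8 after quantile normalisation again, 14 with arrays centred, 4 without the trend, 14 with 4 samples, 47 with the replicate block and 0 to 17 on leaving out samples. Between CX3CR1int and CX3CR1low the single call was lost, with a count of 0, without the filter, with every probe set, after quantile normalisation, without the trend, with 4 samples, with the replicate block and on leaving out any sample. The count of 29 for any subset became 14 without the filter, 0 with every probe set, 79 with the replicate block and 0 to 17 on leaving out samples. Where a sample was left out, the remaining sample of its subset was assumed to vary like the other subsets. The replicate block changed no call of the 7 genes or of a gene named from the pathway lists. Among the markers called in the main fit it added Ly6c2 against CX3CR1low (limma adjusted p = 0.00484) and Mcpt4 against CX3CR1int (0.0254). It also called markers that the main fit did not call, all between CX3CR1high and CX3CR1low. These were 5 of 10 fibroblast markers, lower in CX3CR1high (Col1a1 0.0453, Col1a2 0.0492, Col3a1 0.0298, Dcn 0.0484 and Pcolce 0.0337). The macrophage marker Cd163 was lower too (0.0305), and the dendritic cell marker Ccr7 was higher (0.0239). The call of Ly6c2 against CX3CR1int was lost without the filter (0.0614), with every probe set (0.104), after quantile normalisation (0.0529), without the trend (0.0535), with the robust prior (0.0744) and with 4 samples (0.0541). Krt10 was lost without the filter (0.0631), with every probe set (0.0962), after quantile normalisation (0.0516), with arrays centred (0.0510), without the trend (0.0595) and with 4 samples (0.0968), and Cpa3 against CX3CR1int without the filter (0.0598) and with every probe set (0.0930).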
